A study of Homo sapiens with 6 samples.

Results

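The melanocyte lineage transcription factors are the nuclear regulators that set and keep pigment cell identity, and 9 of them were followed here: MITF, SOX10, PAX3, TFAP2A, IRF4, LEF1, SOX9, SOX5 and FOXD3. They were chosen by gene symbol, each had 1 row of its own among the 17766 genes of the deposited gene-named table, and all 9 were among the 12436 genes bright enough to be tested, FOXD3 only just. Their RNA was measured in WM266-4, a human melanoma line established from a skin metastasis, and in WM115, a human melanoma line established from a primary skin tumour. Both lines grew in DMEM with foetal bovine serum, and the labels name no treatment for either. Each line was measured on 3 arrays, 1 per biological repeat. The arrays of repeat 1 were Human Gene 1.0 ST strips loaded with RNA from a miRNeasy micro kit. Those of repeats 2 and 3 were Human Gene 2.1 ST strips loaded with RNA from a GeneAll Hybrid-R miRNA kit, so array version and RNA kit cannot be told apart. Each tumour stage is represented by 1 line, so stage and line cannot be told apart either.

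MITF is the basic helix-loop-helix factor at the centre of this network. It is transcribed in pigment cells from a promoter of its own, the M promoter, on which SOX10, PAX3, LEF1 and CREB act, and its protein in turn activates tyrosinase, the tyrosinase-related proteins and melanosome genes through E-box sites. FOXD3 and SOX9 also act in the neural crest from which melanocytes descend, and melanomas are known to differ widely in MITF level.

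The M promoter of MITF is shown because the results turn on MITF and because 2 of the sites at which its upstream regulators act can be read in it. The first sequence below is that promoter, at chr3:69936342-69936591 on the + strand of GRCh38.p14 in RefSeq, which lists 3 MITF start sites in this table; it covers the 250 bases before the start site, and capitals mark the LEF/TCF motif CTTTGAT and the cyclic AMP response element TGACGTCA, where CREB binds. The next 3 are the same window of TYR (chr11:89177625-89177874, + strand), TYRP1 (chr9:12693135-12693384, + strand) and DCT (chr13:94479683-94479932, - strand, the one of its 2 listed start sites whose window holds the motif), the 3 melanin synthesis enzymes that MITF is known to activate. In these, capitals mark the M-box TCATGTG and the shorter E-box CATGTG on either strand (CACATGA and CACATG).
MITF: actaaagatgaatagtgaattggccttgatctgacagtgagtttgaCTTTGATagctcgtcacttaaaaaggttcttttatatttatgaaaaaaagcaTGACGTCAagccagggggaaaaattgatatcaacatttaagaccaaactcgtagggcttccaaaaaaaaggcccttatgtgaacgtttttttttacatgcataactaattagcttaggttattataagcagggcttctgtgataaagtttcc
TYR: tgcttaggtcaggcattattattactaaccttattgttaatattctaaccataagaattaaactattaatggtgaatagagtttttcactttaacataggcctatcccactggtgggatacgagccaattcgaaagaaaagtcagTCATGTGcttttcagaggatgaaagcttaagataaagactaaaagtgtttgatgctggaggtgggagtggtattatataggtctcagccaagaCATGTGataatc
TYRP1: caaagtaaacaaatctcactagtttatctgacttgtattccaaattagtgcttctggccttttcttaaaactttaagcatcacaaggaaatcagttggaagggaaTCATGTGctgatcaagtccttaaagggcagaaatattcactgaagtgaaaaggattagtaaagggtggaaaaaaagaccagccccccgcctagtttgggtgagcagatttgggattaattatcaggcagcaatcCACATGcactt
DCT: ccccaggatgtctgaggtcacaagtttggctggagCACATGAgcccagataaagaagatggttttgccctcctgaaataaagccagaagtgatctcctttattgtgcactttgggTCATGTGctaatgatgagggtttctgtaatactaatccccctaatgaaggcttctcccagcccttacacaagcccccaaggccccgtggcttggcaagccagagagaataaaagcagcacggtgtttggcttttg

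Counting back from the start site, the LEF/TCF motif of the M promoter lay at positions -204 to -198 and the cyclic AMP response element at -152 to -145. The M-box lay at -105 to -99 in TYR, at -145 to -139 in TYRP1 and at -135 to -129 in DCT, which held another one on the opposite strand at -215 to -209. Of 40 promoter windows listed for 25 of the MITF targets named below, 9 held an M-box (22.5%), against 2.52% of all 35116 promoter windows in the RefSeq table. The list holds genes already known as MITF targets, so this share is not independent of how the list was made. Of 10 windows listed for 7 of the 9 factors themselves, 0 held an M-box. In those 10 windows the cyclic AMP response element was found in MITF and FOXD3 (2 windows, 20%, against 1.65% of all windows), the LEF/TCF motif in MITF (1 window, 10%, against 2.26%) and the SOX motif AACAAT in SOX5 (1 window, 10%, against 8.98%). The canonical E-box CACGTG, which MITF also binds, was in the FOXD3 window (1 window, 10%, against 6.34%). The 2 sites marked in the M promoter were already known, so its matches are not independent of how the motifs were chosen. All of these are matches of letters on both strands and were not measured as bound sites. The arrays gave 1 level per gene, so the level of the M transcript apart from other MITF transcripts was not measured.

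All levels below are log2 signals as the authors deposited them, and a difference is WM266-4 minus WM115, so 1 on this scale is a doubling. A gene was called, and is said to have risen or fallen, at an adjusted p under 0.05 in a limma fit over all 12436 genes with line and array version as terms (Benjamini-Hochberg). That fit called 3343 genes, 26.9% of those tested, with 13.6% higher and 13.3% lower in WM266-4. The count was 1400 without WM266-4 replicate 2, 1696 without WM266-4 replicate 3, 1777 without WM115 replicate 2 and 1808 without WM115 replicate 3. The array medians over tested genes lay between 6.12 and 6.18. For each gene the mean over the 1.0 arrays nearly equalled the mean over the 2.1 arrays (median gap 0.0041, at most 0.044 for the 9 factors), which shows that the 2 array versions had been levelled gene by gene. The levels of 1 line are therefore not comparable between the array versions. Differences between the lines within a repeat are given side by side below, but whether the levelling changed their size is not known. Arrays of repeats 2 and 3 were matched by number only, and whether same-numbered arrays belong together could not be checked. A gene whose mean in 1 line lay under the filter level of 3.97 passed the filter only through the other line. Signal over background was not assessed, so the size of such a gene's difference rests on a level not shown to be above background.

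Of the 9 factors, 2 rose (MITF and LEF1), 2 fell (IRF4 and SOX9) and 5 were not called (SOX10, PAX3, TFAP2A, SOX5 and FOXD3). The 4 called make up 44.4% of 9 genes, beside the 26.9% of all genes tested. The arrays of the 2 lines did not overlap for 5 factors, the 4 called and PAX3, beside 51.7% of all genes tested. MITF, LEF1 and PAX3 were higher in WM266-4 without overlap (26.4% of all genes) and IRF4 and SOX9 lower (25.2%). The median difference of the 9 was 0.22 log2, against 0.01 over all genes tested. The members thus moved in both directions, and the differences ran between -1.01 for SOX9 and 2.83 for MITF. The plot of levels by array shows all 54 values.

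**Figure D1:**
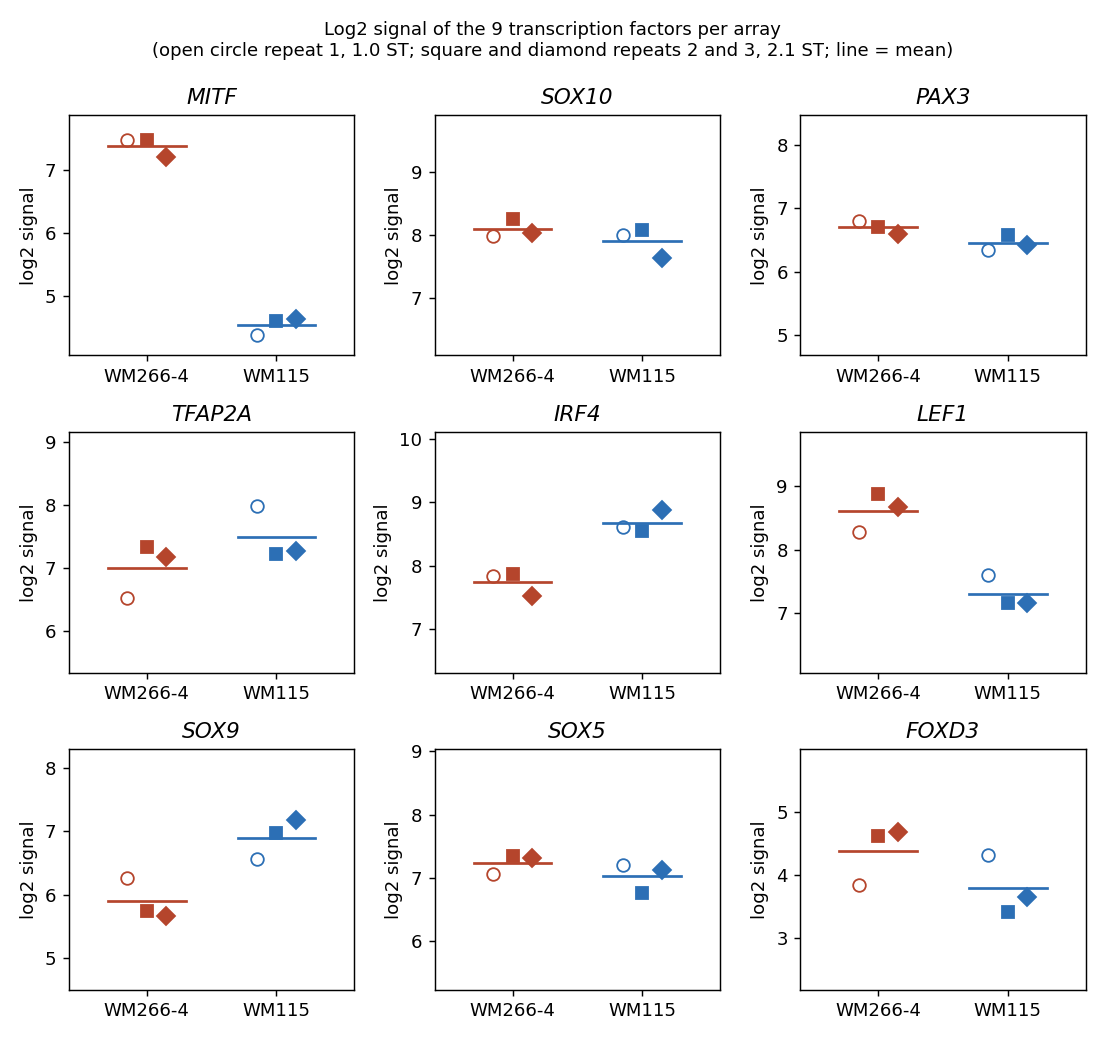
Log2 signal of the 9 transcription factors on each array, WM266-4 in red and WM115 in blue, with a line at the mean of the 3 arrays and every panel spanning the same range. Open circles are repeat 1 (1.0 ST arrays), squares and diamonds repeats 2 and 3 (2.1 ST arrays). The MITF arrays of WM266-4 lie between 7.20 and 7.48 and those of WM115 between 4.40 and 4.64, while the SOX10 arrays of the lines overlap.

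MITF, the lineage's central factor (chr3:69739464-69968332, GRCh38.p14, as for the other genes below), had the largest difference of the 9. Its level was 7.48, 7.47 and 7.20 in repeats 1, 2 and 3 of WM266-4, against 4.40, 4.62 and 4.64 in those of WM115. Every WM266-4 array lay far above every WM115 array. The means were 7.38 ± 0.16 in WM266-4 and 4.55 ± 0.13 in WM115 (SD, n = 3 each). The difference of 2.83 log2 (SE 0.13, 95% interval 2.51 to 3.15, limma adjusted p = 0.00014) is a signal 7.11 times as high in WM266-4. The 3 pairs of repeats gave 3.08, 2.85 and 2.56, and the difference did not pass a test between array versions (-0.38, SE 0.24, limma interaction adjusted p = 0.50). In bulk RNA of a culture, a larger share of cells with the transcript and more of it per cell cannot be told apart.

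The factors known to act on the M promoter did not move with MITF as a group: LEF1 rose, and SOX10 and PAX3 were not called. LEF1 (chr4:108047548-108168932), the nuclear partner of beta-catenin in Wnt signalling, had 8.29, 8.88 and 8.67 in repeats 1, 2 and 3 of WM266-4, against 7.60, 7.16 and 7.15 in those of WM115. All WM266-4 arrays were above all WM115 arrays, and the gap was smallest in repeat 1. The difference was 1.31 log2 (SE 0.20, interval 0.82 to 1.80, limma adjusted p = 0.0067), a signal 2.48 times as high in WM266-4. Its pairs gave 0.69, 1.72 and 1.52, and the difference between versions did not pass (0.93, SE 0.23, limma interaction adjusted p = 0.060).

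SOX10 (chr22:37972312-37984555), the neural crest factor that melanocytes need and that activates MITF, was at nearly the same signal in both lines. It had 7.99, 8.26 and 8.04 in WM266-4 and 8.01, 8.08 and 7.63 in WM115, and the arrays of the lines overlapped. The difference was 0.19 log2 (SE 0.16, limma adjusted p = 0.42), and its 95% interval of -0.19 to 0.57 lies below the MITF difference at every point. PAX3 (chr2:222199887-222298998), a paired box factor that activates MITF and marks melanoblasts, had 6.80, 6.71 and 6.59 in WM266-4, against 6.34, 6.58 and 6.42 in WM115. Its WM266-4 arrays lay above its WM115 arrays, narrowly, and the difference of 0.25 (SE 0.12, interval -0.03 to 0.54) was not called (limma adjusted p = 0.16).

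IRF4 and SOX9 were lower in WM266-4. IRF4 (chr6:391752-411443), an interferon regulatory factor that acts with MITF on the tyrosinase gene, had 7.83, 7.87 and 7.52 in WM266-4, against 8.61, 8.55 and 8.88 in WM115. All WM266-4 arrays were below all WM115 arrays. It fell by 0.94 log2 (SE 0.15, interval -1.30 to -0.58, limma adjusted p = 0.0073), so its mean signal was 1.92 times as high in WM115, and its pairs gave -0.77, -0.69 and -1.36.

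SOX9 (chr17:72121020-72126416), a SOXE factor best known from cartilage and also active in the neural crest and in melanocytes, had 6.26, 5.75 and 5.67 in WM266-4, against 6.55, 6.97 and 7.18 in WM115. The lines did not overlap, and their arrays came closest in repeat 1. SOX9 fell by 1.01 log2 (SE 0.23, interval -1.55 to -0.46, limma adjusted p = 0.022). The difference was -0.29 in repeat 1 and a mean of -1.37 in repeats 2 and 3, and this gap between array versions passed the test (-1.07, SE 0.23, limma interaction adjusted p = 0.037). The SOX9 call was lost without replicate 2 or 3 of either line (limma adjusted p between 0.079 and 0.094), and on the 2.1 arrays alone the adjusted p was 0.00022.

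TFAP2A and FOXD3 were not called, and their differences between the lines were not the same in repeat 1 and the later repeats. TFAP2A (chr6:10396677-10419659), the AP-2 factor that works with MITF in melanocyte differentiation, had 6.53 in WM266-4 and 7.98 in WM115 in repeat 1, a difference of -1.45. In repeats 2 and 3 it had 7.33 and 7.17 in WM266-4 and 7.22 and 7.27 in WM115, a mean difference of 0.01. The gap between array versions was 1.46 (SE 0.22, interval 0.95 to 1.97, limma interaction adjusted p = 0.0092). Over all arrays TFAP2A was not called (-0.48, SE 0.29, limma adjusted p = 0.27), and without either replicate 1 array the difference was 0.01.

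FOXD3 (chr1:63322567-63325128), a forkhead factor of early neural crest cells that holds back the melanocyte fate in chick and zebrafish embryos, had 3.84 in WM266-4 and 4.31 in WM115 in repeat 1. In repeats 2 and 3 it had 4.61 and 4.67 in WM266-4, against 3.42 and 3.65 in WM115. The line with the higher signal was thus WM115 in repeat 1 and WM266-4 in the later repeats, with pairs at -0.47, 1.19 and 1.02. The gap between versions was 1.57 (SE 0.23, interval 1.03 to 2.12, limma interaction adjusted p = 0.0084). FOXD3 was not called over all arrays (0.58, SE 0.31, limma adjusted p = 0.22), but it was on the 2.1 arrays alone (1.10, SE 0.14, limma adjusted p = 0.00066), which are what is compared without either replicate 1 array. In WM266-4 its mean was 4.37, and in WM115 its mean of 3.79 lay under the filter level of 3.97, as did both of its 2.1 arrays. FOXD3 thus passed the filter only through WM266-4, and its call on the 2.1 arrays rests on WM115 levels not shown to be above background.

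SOX5 (chr12:23529504-24562650), a SOXD factor that counteracts SOX10 on melanocyte promoters in mice, overlapped between the lines. It had 7.05, 7.35 and 7.32 in WM266-4 and 7.20, 6.75 and 7.12 in WM115. The difference was 0.22 log2 (SE 0.16, interval -0.17 to 0.60, limma adjusted p = 0.36), with pairs at -0.14, 0.59 and 0.20.

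**Figure D2:**
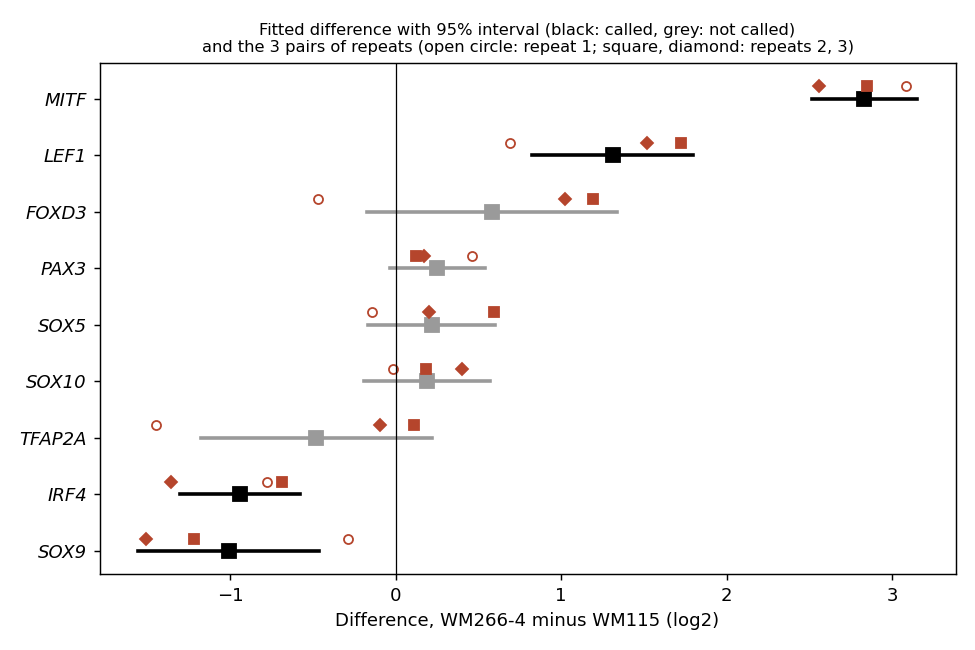
Fitted log2 difference, WM266-4 minus WM115, of each factor with its 95% interval (black where called, grey where not), and above it in red the 3 pairs of repeats (open circle repeat 1, square repeat 2, diamond repeat 3). MITF and LEF1 lie to the right of 0 and IRF4 and SOX9 to the left, and the repeat 1 circles of TFAP2A (-1.45), FOXD3 (-0.47) and SOX9 (-0.29) stand apart from their later pairs.

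The difference between array versions passed for 3 of the 9 factors (SOX9, TFAP2A and FOXD3), beside 5.48% of all genes tested. Repeat 1 had 1 array per line, so this test takes its error from repeats 2 and 3, and the spread of repeat 1 arrays was not measured. Array version, RNA kit, the culture of repeat 1 and the levelling of the versions cannot be told apart as the source of the gap.

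Of the listed MITF targets, 22 of 32 tested rose. Of 34 genes listed, 33 had a row and 32 were tested: 22 rose, 1 fell and 9 were not called, a called share of 71.9% beside the 26.9% of all genes. Of the 22 that rose, 9 had WM115 means under the filter level and had passed it only through WM266-4, so their WM266-4 means had to be the higher ones. Among all genes tested, 248 had WM115 means under that level, and 132 of these rose. Among the 23 targets above that level in both lines, 13 rose, 1 fell and 9 were not called, with a median difference of 0.86 log2. Of all genes tested, 11868 were above it in both lines. Of these 1557 rose, 1461 fell and 8850 were not called, with a median of 0.01. Over all 32 the median difference was 1.14 log2, and 1.37, 1.41 and 0.87 in the 3 pairs, against 0.01 over all genes. The list was written with earlier results of these data known, and its pigmentation genes are known to be high where MITF is.

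TYR, tyrosinase, which carries the M-box shown above, had 10.2, 10.3 and 9.73 in WM266-4, against 2.92, 3.43 and 3.17 in WM115. The WM115 arrays of TYR, and those of DCT and TYRP1, were all under the filter level of 3.97, so the sizes of these differences rest on levels not shown to be above background. TYR rose by 6.91 log2 (SE 0.20, limma adjusted p = 3.2e-05). DCT, dopachrome tautomerase, had 10.3, 9.49 and 7.86 in WM266-4, against 1.59, 3.27 and 3.50 in WM115, a rise of 6.43 (SE 0.74, limma adjusted p = 0.0028) with a pair difference of 8.70 in repeat 1 and a mean of 5.29 in repeats 2 and 3 (limma interaction adjusted p = 0.040). TYRP1, chosen for its M-box, had 4.94, 4.75 and 5.68 in WM266-4 and 3.23, 2.96 and 3.09 in WM115, and rose by 2.03 (SE 0.25, limma adjusted p = 0.0033). SEMA6A, a transmembrane semaphorin, was the 1 listed target that fell (-1.10, SE 0.18, limma adjusted p = 0.0082).

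**Figure D3:**
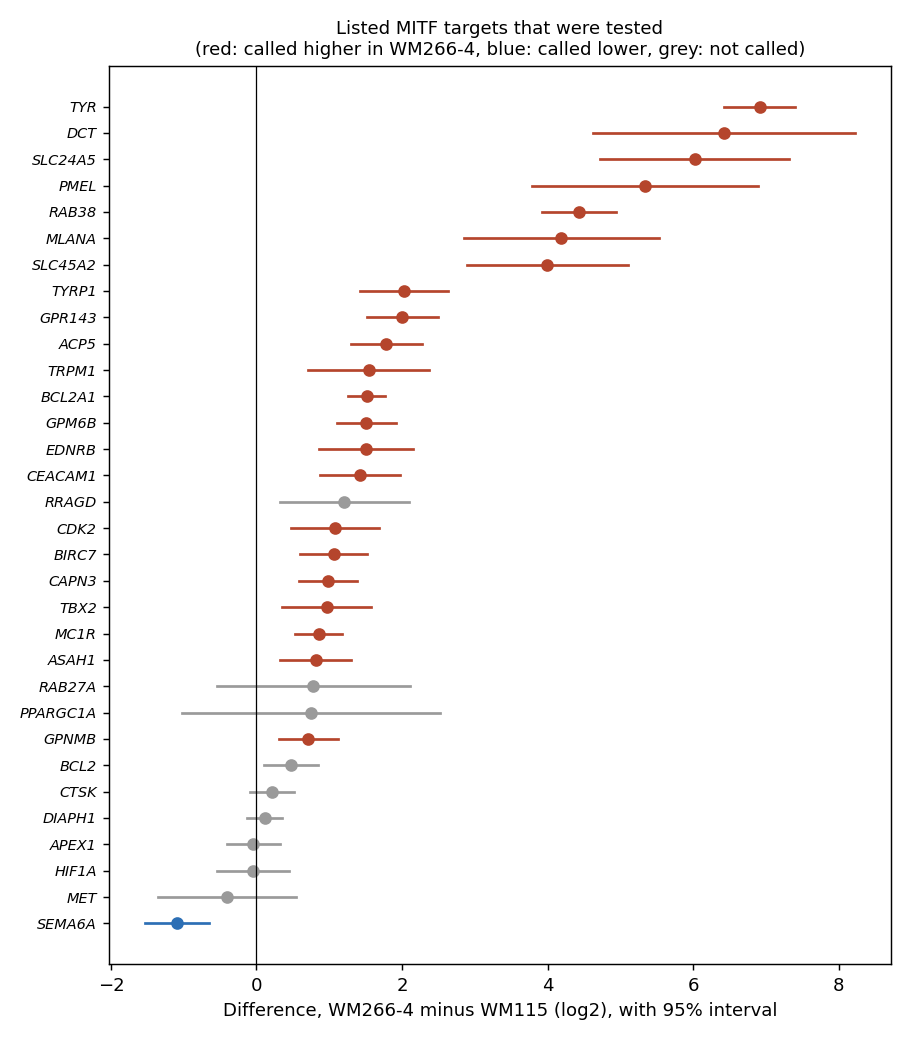
Fitted log2 difference, WM266-4 minus WM115, with 95% interval for the 32 listed MITF targets that were tested, red where called higher in WM266-4, blue where called lower and grey where not called. Intervals are not adjusted for the number of genes, so a grey one may miss 0. TYR (6.91) and DCT (6.43) head the list and SEMA6A (-1.10) closes it.

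The targets of the SOX factors and of LEF1 held genes called in both directions. Of 15 tested genes listed as SOX10 or SOX9 targets, 7 rose, 2 fell and 6 were not called (60% called, beside 26.9% of all genes, median 0.80 log2). Among the 7 that rose were MITF itself and TYR, DCT and EDNRB, which were counted above as MITF targets. In 3 of the 7 that rose the WM115 mean was under the filter level. Those that fell were ACAN, the cartilage proteoglycan that SOX9 activates in chondrocytes (3.38 ± 0.37 in WM266-4 and 5.67 ± 0.50 in WM115, SD, n = 3 each; -2.29, SE 0.30, limma adjusted p = 0.0039), whose WM266-4 mean was under the filter level, and CDH19, a cadherin of Schwann cell precursors (-0.64, SE 0.18, limma adjusted p = 0.042). The CDH19 call was lost on leaving out any array but WM115 replicate 3 (limma adjusted p between 0.080 and 0.13).

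Of 9 tested genes listed as LEF1/TCF targets, 2 rose, 1 fell and 6 were not called (33.3% called, near the 26.9% of all genes, median -0.03 log2). MYC, a growth-promoting transcription factor, had 7.27, 7.30 and 7.38 in WM266-4, against 5.99, 6.05 and 5.88 in WM115, and rose by 1.34 (SE 0.10, limma adjusted p = 0.00076). NKD1, a feedback inhibitor of Wnt signalling, rose by 0.71 (SE 0.16, limma adjusted p = 0.022), and DKK1, a secreted Wnt antagonist, fell by 2.18 (SE 0.42, limma adjusted p = 0.014). AXIN2, the feedback gene most often used to read this pathway, was chosen after its values were seen; its difference was -0.44 (SE 0.14, limma adjusted p = 0.065). The NKD1 call was lost without replicate 2 or 3 of either line and the DKK1 call without WM266-4 replicate 2 or WM115 replicate 2 (limma adjusted p between 0.059 and 0.081).

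Among the paralogs of the 9 factors, 1 rose, 2 fell and 10 of 13 tested were not called (23.1% called, beside 26.9% of all genes, median 0.10 log2). TFAP2B, the AP-2 paralog of TFAP2A that acts in melanocyte precursors, had 5.92, 6.66 and 6.04 in WM266-4, against 3.66, 3.13 and 3.53 in WM115, all under the filter level and not shown to be above background. It rose by 2.76 log2 (SE 0.24, limma adjusted p = 0.0012) without overlap, while TFAP2C (0.10, SE 0.12) and TFAP2E (0.24, SE 0.09) were not called. TFE3, the MiT family paralog of MITF that drives lysosome genes, fell by 0.49 (SE 0.12, limma adjusted p = 0.031) and FOXD1 by 0.43 (SE 0.10, limma adjusted p = 0.022). Both calls were lost without replicate 2 or 3 of either line (limma adjusted p between 0.059 and 0.12).

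The remaining paralogs had small or uneven differences. Within the SOXE family SOX8 was at -0.03 (SE 0.18), with the opposite sign on the 2.1 arrays alone (0.19), and within the SOXD family SOX13 was at -0.33 (SE 0.23). SOX6 was at 0.93 (SE 0.37) and not called (limma adjusted p = 0.11); like FOXD3, it was lower in WM266-4 in repeat 1 (-0.32) and higher in the later repeats (mean 1.55), a gap that passed between versions (limma interaction adjusted p = 0.0061). Of LEF1's paralogs TCF7 was at -0.52 (SE 0.18), TCF7L1 at 0.46 (SE 0.23) and TCF7L2 at 0.27 (SE 0.17). PAX7 was at 0.11 (SE 0.10) and FOXD2 at -0.25 (SE 0.12). SOX6 and TCF7 were called on the 2.1 arrays alone, that is without either replicate 1 array (limma adjusted p = 0.00019 and 0.0027). TFEB, TFEC, TFAP2D and IRF8 were under the filter level and were not tested, and FOXD4 was not analysed here.

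Of 14 other regulators of MITF expression, 2 rose, 2 fell and 10 were not called (28.6% called, beside 26.9% of all genes, median -0.12 log2). Both that fell are known to repress MITF or to be high where it is low. JUN, an AP-1 subunit, had 5.14, 4.75 and 5.12 in WM266-4, against 7.35, 7.46 and 7.48 in WM115, and fell by 2.43 (SE 0.14, limma adjusted p = 0.00030). GLI2, a Hedgehog and TGF-beta effector that represses MITF, had 6.01, 5.84 and 6.29 in WM266-4, against 7.46, 7.56 and 7.16 in WM115, and fell by 1.34 (SE 0.17, limma adjusted p = 0.0035).

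The rises were of the stress factors BHLHE40 (0.94, SE 0.27, limma adjusted p = 0.047) and ATF4 (0.34, SE 0.09, limma adjusted p = 0.042), both known as repressors of MITF. The ATF4 call was lost on leaving out any 1 array and the BHLHE40 call on leaving out any array but WM115 replicate 3 (limma adjusted p between 0.054 and 0.16). CREB1, which binds the cyclic AMP response element, was at -0.31 (SE 0.10, limma adjusted p = 0.066), and beta-catenin, CTNNB1, at -0.04 (SE 0.13), or 0.06 without WM266-4 replicate 3. ZEB1 was at -0.41 (SE 0.13), YAP1 at -0.20 (SE 0.11), MSX1 at -0.22 (SE 0.16), ONECUT2 at 0.17 (SE 0.19) and HIF1A at -0.05 (SE 0.21). ZEB1 and MSX1 were called on the 2.1 arrays alone, without either replicate 1 array (limma adjusted p = 0.017 and 0.036).

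The neural crest factors POU3F2, ZEB2 and SNAI2, regulators of MITF that were not called over all arrays, differed between array versions, each with a lower difference in repeat 1. POU3F2, also called BRN2, was at -0.91 in repeat 1 and a mean of 0.73 in repeats 2 and 3 (limma interaction adjusted p = 0.015). ZEB2 was at -0.42 and 0.74 (limma interaction adjusted p = 0.020), and SNAI2 at -1.39 and -0.09 (limma interaction adjusted p = 0.017). Without either replicate 1 array POU3F2 and ZEB2 were called (limma adjusted p = 0.011 and 0.0031).

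Of the genes of the MITF-low melanoma state, the programme that melanomas show where MITF is low, 16 were listed and tested. Of these 0 rose, 10 fell and 6 were not called, so 62.5% were called lower, beside 13.3% of all genes, and the median was -1.17 log2. EGFR, a receptor tyrosine kinase, had 4.58, 2.79 and 3.34 in WM266-4, against 5.80, 7.10 and 7.28 in WM115, and fell by 3.16 (SE 0.56, limma adjusted p = 0.011; 0.053 without WM115 replicate 2), with a WM266-4 mean under the filter level. TGFBI, a matrix protein induced by TGF-beta, fell by 2.96 (SE 0.39, limma adjusted p = 0.0040). Both moved in every repeat but to a different degree, with EGFR at -1.23 in repeat 1 and a mean of -4.13 later, and TGFBI at -4.27 and -2.31 (limma interaction adjusted p = 0.0024 and 0.0061). JUN, counted here among those that fell, and ZEB1, among those not called, stand in both lists.

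**Figure D4:**
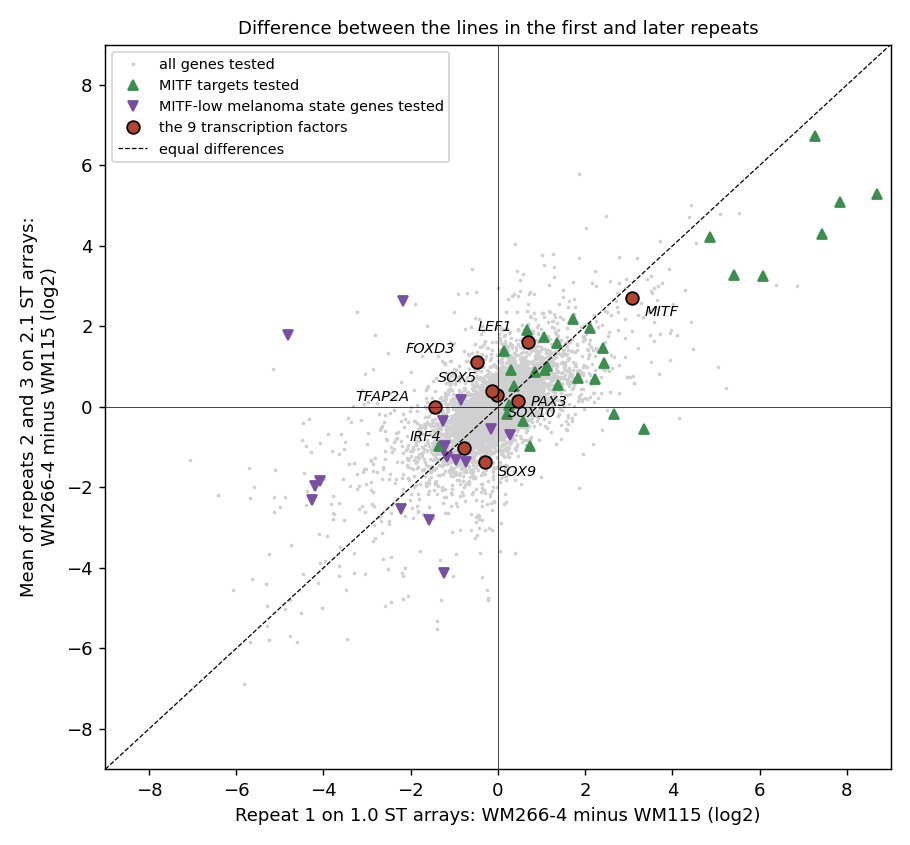
Difference between the lines (log2, WM266-4 minus WM115) in repeat 1 on 1.0 ST arrays (horizontal) against the mean of repeats 2 and 3 on 2.1 ST arrays (vertical), with all 12436 tested genes in grey, listed MITF targets as green triangles, MITF-low genes as purple triangles and the 9 factors as labelled red circles. MITF (3.08 and 2.70) lies near the dashed line of equal differences, and FOXD3 (-0.47 and 1.10) and TFAP2A (-1.45 and 0.01) lie above it.

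The lines' identity as melanoma cells was checked against 10 melanocyte and melanoma markers. All 10 had mean levels above the filter level in WM266-4. In WM115 5 of 10 did, and MLANA, PMEL, TYR, DCT and TYRP1 were below it. Above it in both lines were S100B, S100A1, PRAME, MCAM and the melanoma proteoglycan CSPG4 (8.66 ± 0.25 in WM266-4 and 7.27 ± 0.26 in WM115, SD, n = 3 each). SOX10, which is 1 of the 9 factors and not on this list, was also above it in both lines (7.90 ± 0.24 in WM115, SD, n = 3). Of the 10 markers 8 rose, beside 13.6% of all genes, 0 fell and 2 were not called, and 5 of the 8 that rose were those under the level in WM115. The same 5 genes were counted above among the MITF targets that rose.

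Across the 6 arrays, the 3 genes whose levels followed each called factor most closely were named. The 3 highest Pearson coefficients with MITF among 12427 other tested genes were those of BST2, IDH3A and GPHN (0.99978 to 0.99992), and with LEF1 those of PHKA2, SEMA3E and SAMD4A (0.99884 to 0.99955). For IRF4 they were HGSNAT, TNIP1 and ZC3H6 (0.99873 to 0.99938) and for SOX9 EBF4, MAP1LC3A and GOLGB1 (0.99897 to 0.99962). These coefficients are a description over 2 lines on shared arrays: a difference between the lines fixes most of each, and 969 genes had one over 0.95 with MITF. The gene-by-gene levelling of the array versions also enters the coefficients, so the 6 values of a gene were not free of each other. BST2, a membrane protein, was at 7.14 in WM266-4 and at 2.91, under the filter level, in WM115. IDH3A, a citric acid cycle enzyme, was at 6.51 in WM266-4 and 6.06 in WM115, a far smaller difference with nearly the same pattern.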

How the data were processed

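RNA of 3 WM266-4 and 3 WM115 cultures was measured on Affymetrix gene-level arrays. The authors deposited log2 signals per gene for all 6 arrays in 1 table. RMA and Affymetrix Expression Console are the tools named by the submitters' processing notes; no source used here gives how the 2 array versions were levelled. Probe-set tables without gene names were not used.

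Of 18887 rows, 1121 repeated a symbol, and the brightest row per symbol was kept. Genes with a mean below the 30th percentile (3.97) were not tested. limma 3.58.1 (R 4.3.3) was run on these log2 values (line and array version; 3 residual and 3.38 prior degrees of freedom), and an interaction of line and version was fitted with 2 residual degrees of freedom. The fit was tested on simulated data. Errors are SDs over 3 arrays or standard errors of the fit; the levelling enters the SDs. The number of arrays limits the precision.

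Named genes were the 9 factors, the 2 called genes per list with the largest change in each direction, all tested paralogs and regulators of MITF, and the 3 best-correlated genes per called factor. Members, lists and tests were chosen with earlier results of these data known. Alternatives were other terms, filters, row choices, normalization, priors and leaving out each array. Listed genes were matched to current symbols or synonyms of RefSeq, whose GRCh38.p14 promoters were searched for 6 motifs.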

Additional observations from a re-analysis of the deposited data

Results flagged for a closer look

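These genes were singled out because the difference between the lines on the 2.1 arrays of repeats 2 and 3 was not the same as on the 1.0 arrays of repeat 1 (limma interaction, adjusted p under 0.05 over all tested genes, of which 5.48% passed). Each value is the later difference minus the first one, in log2. Among the 9 factors it was 1.57 for FOXD3, 1.46 for TFAP2A and -1.07 for SOX9. Among their paralogs and the regulators of MITF it was 1.87 for SOX6, 1.64 for POU3F2, 1.30 for SNAI2 and 1.16 for ZEB2.

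Of the 32 MITF targets tested 10 passed. DCT was at -3.41, and RAB27A, which moves melanosomes, and PPARGC1A, a coactivator of mitochondrial genes, were at -2.83 and -3.91. PMEL (-3.13), MLANA (-2.84), SLC24A5 (-2.75) and SLC45A2 (-2.12) also had smaller later differences. EDNRB (1.26), TBX2 (1.24) and CEACAM1 (1.05) had larger later ones. RAB27A and PPARGC1A were taken up after their values were seen, because their sign turned: RAB27A was at 2.66 in repeat 1 and -0.16 later, PPARGC1A at 3.35 and -0.56. Of the 16 MITF-low genes tested 8 passed, among them TGFBI at 1.96, SOX2, a stem cell factor, at 2.24, and EGFR at -2.90. NGFR, the nerve growth factor receptor of neural crest cells (4.82), the water channel AQP1 (6.61) and the matrix protein TNC (1.01) were added in the same way. NGFR was at -2.17 in repeat 1 and 2.64 later, AQP1 at -4.81 and 1.80 and TNC at -0.85 and 0.16. SEMA3E, one of the genes most like LEF1 in pattern, was at 1.84. Of the markers of other cell types, COL1A2 was at 3.94, CD68 at -2.08, DSP at -1.74 and PDGFRB at -1.13. FOXD3, DCT, PMEL, MLANA, SLC24A5 and SLC45A2 in WM115, and DSP, EGFR and PDGFRB in WM266-4, had means under the filter level. The cause of these gaps was not tested.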

How the results depend on the processing

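MITF, LEF1 and IRF4 kept their direction and their call under all 15 alternatives, with differences of 2.70 to 2.94 for MITF, 1.16 to 1.62 for LEF1 and -1.02 to -0.82 for IRF4. SOX10, PAX3, SOX5 and TFAP2A were called under 0 of 15 (limma adjusted p at least 0.081). SOX9 kept its call under 10 of 15 and FOXD3 gained one under 3 of 14. These 3, the 2.1 arrays alone and leaving out either replicate 1 array, are 1 and the same comparison. It is also counted 3 times among the 15 of the other factors. Leaving out 1 array gave 1400 to 3914 called genes; 2.1 arrays alone gave 3914. Leaving out 1 array, 3 to 5 factors and 16 to 25 MITF targets were called. The difference turned sign on the 2.1 arrays alone for TFAP2A (0.0067), SOX8 (0.19) and ONECUT2 (-0.085), and equally without either replicate 1 array. It turned for HIF1A when repeated rows were averaged (0.046). Leaving out 1 array gave -0.66 to 0.0067 for TFAP2A, -0.20 to 0.19 for SOX8, -0.085 to 0.34 for ONECUT2, -0.094 to 0.73 for POU3F2, -0.18 to 0.057 for CTNNB1 and -0.36 to 0.12 for HIF1A. None of the values of turned sign was called; the cause was not tested. With the replicate number as a block, 2398 genes and 3 factors were called, SOX9 missing with an adjusted p of 0.054; the deviations of same-numbered arrays correlated at -0.998, -0.26 and -0.40, but the levelling fixes the first and pulls the others down, so pairing could not be checked and the numbers were not taken as pairs. Without an array version term 4714 genes were called. Signal over background was not assessed.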

Other observations

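Of the markers of other cell types that were called, 7 fell and 1 rose, while of all genes tested 13.3% fell and 13.6% rose. Of the 7 that fell, DSP, COL3A1, PDGFRB and GAP43 had passed the filter only through WM115, which favoured a fall. The called share was 42.9% of the fibroblast markers tested and 25% of the Schwann cell markers, beside 26.9% of all genes. Of 7 keratinocyte markers 1 was tested, desmoplakin DSP (-1.48, SE 0.37), and of 8 leukocyte markers 1, the lysosomal protein CD68 (-1.76, SE 0.40); both fell, and both calls were lost without replicate 2 or 3 of either line. Summed over its list, the keratinocyte level was 22.4 to 24.2 on the WM266-4 arrays and 24.6 to 26.3 on the WM115 arrays, and the leukocyte level 29.0 to 31.0 in WM266-4 and 29.9 to 31.9 in WM115. Under the filter level lay 7 of 7 keratinocyte markers in WM266-4 and 5 of 7 in WM115, and 7 of 8 leukocyte markers in both lines. Of 5 endothelial markers only the receptor KDR was tested, and it fell (-1.91, SE 0.26). The sums of the keratinocyte and endothelial lists did not overlap between the lines and were lower in WM266-4. Of all genes tested, 51.7% did not overlap between the lines either. The endothelial list summed to 14.6 to 15.1 in WM266-4 and 16.1 to 16.8 in WM115. Of its genes with a row, only KDR was lower in WM266-4. VWF (3.49 in WM266-4 and 3.43 in WM115), CDH5 (3.44 and 3.43) and TEK (3.31 and 2.95) were not. The keratinocyte list was lower mainly in DSP and in TP63, which was not tested (3.25 in WM266-4 and 4.34 in WM115). Of 9 fibroblast markers 7 were tested: the collagen chain COL1A2 rose (4.48, SE 0.75), COL3A1 (-2.01, SE 0.29) and the receptor PDGFRB (-1.02, SE 0.25) fell, and the list summed to 43.0 to 44.4 in WM266-4 and 42.2 to 44.3 in WM115. Of 8 Schwann cell markers, SOX2 (-2.58, SE 0.44) and the growth cone protein GAP43 (-0.38, SE 0.11) fell, 0 rose and 6 were not called, with sums of 43.7 to 50.3 in WM266-4 and 46.9 to 53.2 in WM115. The GAP43 call was lost on leaving out any 1 array and the PDGFRB call without replicate 2 or 3 of either line (limma adjusted p between 0.055 and 0.14). The WM266-4 means of DSP, COL3A1, PDGFRB and GAP43 were under the filter level and not shown to be above background. The part of these genes in the results for the 9 factors was not tested.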
